A study of Mus musculus with 8 samples.

Results

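The proteasome genes of mouse lung were followed on 8 Affymetrix oligonucleotide arrays, and the members were all probe sets (groups of short oligonucleotides that report 1 transcript) whose single annotated gene symbol began with Psma, Psmb, Psmc, Psmd, Psme, Psmf or Psmg. The genes that interferon induces, Psmb8, Psmb9, Psmb10, Psme1 and Psme2, were left out of the members. All but Psme2, which no probe set had as its single symbol, are summarised near the end for comparison. This rule found 53 of the 12422 probe sets that are not controls, and they stood for 42 genes. It used gene names and no measured value. For 2 of the genes the symbol begins in this way although the product is no part of the proteasome: Psmc3ip, whose protein works in meiotic recombination, and Psme3ip1, whose protein binds Psme3. The other 51 probe sets were those of subunits, assembly chaperones and activators.

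Whole lungs of C3H/HeJ and C3H/HeOuJ mice that had breathed ozone or filtered air were frozen, and their total RNA was hybridised, with 2 arrays for each of the 4 groups. C3H/HeJ mice carry a defective Tlr4, the endotoxin receptor, and the closely related C3H/HeOuJ mice an intact one. An exposure of 72 h is stated for both C3H/HeOuJ groups, and the duration in C3H/HeJ, the ozone concentration and the age and sex of the mice are not given in the sources used here. The strains are written HeJ and HeOuJ from here on. The arrays of a group are named 1a and 1b, and nothing says that they came from separate animals, so a p-value here reflects the spread between arrays alone, and that spread may be technical. In whole lung, fewer cells of a type and less RNA per cell cannot be told apart.

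The proteasome is the protease that degrades most short-lived and damaged cytosolic and nuclear proteins once they carry a chain of ubiquitin. Its barrel-shaped core is built from outer rings of alpha subunits, which gate the entrance, and inner rings of beta subunits, of which Psmb5, Psmb6 and Psmb7 hold the active sites. A regulatory particle sits on the end of the core: the ATPases of its base (Psmc genes) unfold the substrate, and its lid (Psmd genes) removes the ubiquitin. In mammalian cells the transcription factor Nfe2l1 raises the subunit genes together when proteasome activity is short, through antioxidant response elements in their promoters.

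The promoters of 4 members are shown, 2 of them higher (Psma7, Psmb6) and 2 lower (Psma4, Psmd11) on the HeOuJ ozone arrays. They were picked after their values were seen, among the members with larger differences. Other members had larger or better supported differences than some of these, such as Psmb1, for which no promoter window was found. Each sequence is the part of the RefSeq promoter window before the annotated transcript start, 250 bases, 5′ to 3′ in the direction of the gene, in the mouse build GRCm38.p6. Their positions are chr2:180042465-180042714 on the minus strand, chr11:70525107-70525356 on the plus strand, chr9:54950609-54950858 on the plus strand and chr11:80428365-80428614 on the plus strand. Capitals mark a match, on either strand, to the core of the antioxidant response element (TGACNNNGC) or to the CCAAT box, which binds NF-Y.
Psma7: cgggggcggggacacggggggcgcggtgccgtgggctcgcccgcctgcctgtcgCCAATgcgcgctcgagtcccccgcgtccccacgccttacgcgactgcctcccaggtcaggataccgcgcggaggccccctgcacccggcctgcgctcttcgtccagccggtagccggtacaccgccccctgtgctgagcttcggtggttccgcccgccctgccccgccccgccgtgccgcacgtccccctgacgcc
Psmb6: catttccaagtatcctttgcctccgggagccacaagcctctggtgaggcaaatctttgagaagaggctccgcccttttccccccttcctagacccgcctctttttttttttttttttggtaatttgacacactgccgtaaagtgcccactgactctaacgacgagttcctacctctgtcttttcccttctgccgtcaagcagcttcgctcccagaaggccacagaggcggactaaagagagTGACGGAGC
Psma4: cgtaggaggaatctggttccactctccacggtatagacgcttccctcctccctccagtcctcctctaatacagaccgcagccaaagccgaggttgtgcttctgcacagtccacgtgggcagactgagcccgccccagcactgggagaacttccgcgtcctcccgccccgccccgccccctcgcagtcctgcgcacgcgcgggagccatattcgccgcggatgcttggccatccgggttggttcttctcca
Psmd11: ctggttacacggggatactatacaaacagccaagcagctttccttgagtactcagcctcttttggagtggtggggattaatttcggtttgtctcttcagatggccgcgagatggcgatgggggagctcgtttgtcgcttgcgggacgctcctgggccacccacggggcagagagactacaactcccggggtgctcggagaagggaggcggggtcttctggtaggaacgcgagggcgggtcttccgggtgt
The Psmb6 sequence ends in a match to the antioxidant response element core, the Psma7 sequence holds 1 CCAAT box, and those of Psma4 and Psmd11 hold neither. Promoter windows were found for 35 of the 42 genes (38 windows). The windows run past the transcript start, beyond the 250 bases shown, and the shares that follow used their whole length. The antioxidant response element core stood in 6 of the 38 windows (15.8%), those of Psmb5, Psmb6, Psmc6, Psmd9, Psmd12 and Psme4, against 12.4% of 32851 windows of all genes. The CCAAT box stood in 14 of them (36.8%), against 37.4% of all windows. Neither share stood far from that of all genes, and a match describes letters only, with no measurement of binding here.

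The probe sets of the proteasome were bright. A floor was set at an intensity of 69.6, the 20th percentile of all values, and 47 of the 53 members (88.7%) lay above it on all 8 arrays, against 66.6% of all probe sets. The test covered the 10953 probe sets that exceeded it on 2 or more arrays, and 51 of the 53 members were among them. Those left out were the single probe set of Psmc3ip, above the floor on 0 arrays, and 98558_r_at, a further probe set of Psmb4, above it on 1 array. The median standard error of a log2 difference between 2 groups was 0.20 for the members and 0.30 for all probe sets tested. The number of arrays limits the precision of all values given here.

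The arrays had a common trimmed mean intensity, so the deposited values were already scaled to each other. Median intensities ran from 351 to 386. The HeOuJ ozone arrays stood apart in a measure of the RNA itself: for actin, the control probe set at the 5′ end read 0.766 and 0.756 times the one at the 3′ end there, and 0.432 to 0.603 times on the remaining 6 arrays. Surfactant protein and other lung epithelium markers were present on every array, with summed intensities of 119350 and 148560 in HeJ air, 130590 and 109420 in HeJ ozone, 134200 and 103310 in HeOuJ air, and 185110 and 168060 in HeOuJ ozone. Of the 5 lung epithelium probe sets, 1 differed between ozone and air in HeOuJ at an unadjusted p under 0.05. Markers of dividing cells summed to 2317 to 2876 in HeJ air, 3335 to 3666 in HeJ ozone, 1952 to 2493 in HeOuJ air and 3691 to 3823 in HeOuJ ozone, with 4 of 8 probe sets higher at that threshold in HeOuJ and 2 of 8 in HeJ. B and plasma cell markers were lowest in HeJ ozone (9123 to 9264, against 14737 to 17798 on the other arrays), and 2 of 18 probe sets were higher in HeOuJ than in HeJ in ozone at an adjusted p under 0.05 (smallest 0.0127). Of the 6 tested macrophage probe sets, Chil3 was lower in ozone in HeOuJ (7031 and 4978 in air, 2719 and 2459 in ozone, log2 difference -1.19, SE 0.18, limma adjusted p 0.0464), and Cd68 by 103016_s_at was higher in HeOuJ than in HeJ in ozone (2405 and 1932 against 965 and 806, 1.29, SE 0.18, adjusted p 0.0329). Marco and a further probe set of Cd68, 162173_i_at, lay at the floor on all arrays. Summed macrophage intensities were 6849 to 7381 in HeJ air, 5459 to 5605 in HeJ ozone, 9918 to 10869 in HeOuJ air and 7260 to 8013 in HeOuJ ozone. Muscle markers summed to 7024 to 7163 in HeOuJ ozone against 4725 to 6491 on the other arrays, and of 6 probe sets Myh6, a heart myosin, was higher in HeOuJ than in HeJ in ozone (0.84, SE 0.15, adjusted p 0.0494). Endothelial markers summed to 16832 to 17977 in HeOuJ ozone against 17466 to 25317 on the other arrays, with 5 of 5 lower in HeOuJ than in HeJ in ozone by the means (median -0.46, 0 past the adjusted threshold). Neutrophil markers summed to 3603 to 4213 in HeOuJ ozone and 3836 to 4208 in HeJ ozone, against 4461 to 5423 in air. In these sums S100a8 and S100a9, both lower in ozone by the means, weigh most. Of the 6 neutrophil probe sets, 4 lay above 0 for ozone in each strain (median 0.28 in HeOuJ and 0.03 in HeJ). T cell markers summed to 379 to 663 over all arrays. Of these measures, the 5′ to 3′ ratio of actin and the lung epithelium and muscle sums stood apart on the HeOuJ ozone arrays. Sftpc and Scgb1a1 weigh most in the epithelium sums, and Myh6 in the muscle sums of those arrays. By probe set, 3 of 5 epithelium markers lay above 0 for ozone in HeOuJ (median 0.41) and 2 of 5 for the strain in ozone (median -0.03). For muscle it was 4 of 6 (median 0.09) and 5 of 6 (median 0.39). The dividing cell sums were higher in both ozone groups, and the B and plasma cell sums stood apart in HeJ ozone. The part of these measures in the differences below was not tested, except for the 5′ to 3′ ratio as given later.

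**Figure D1:**
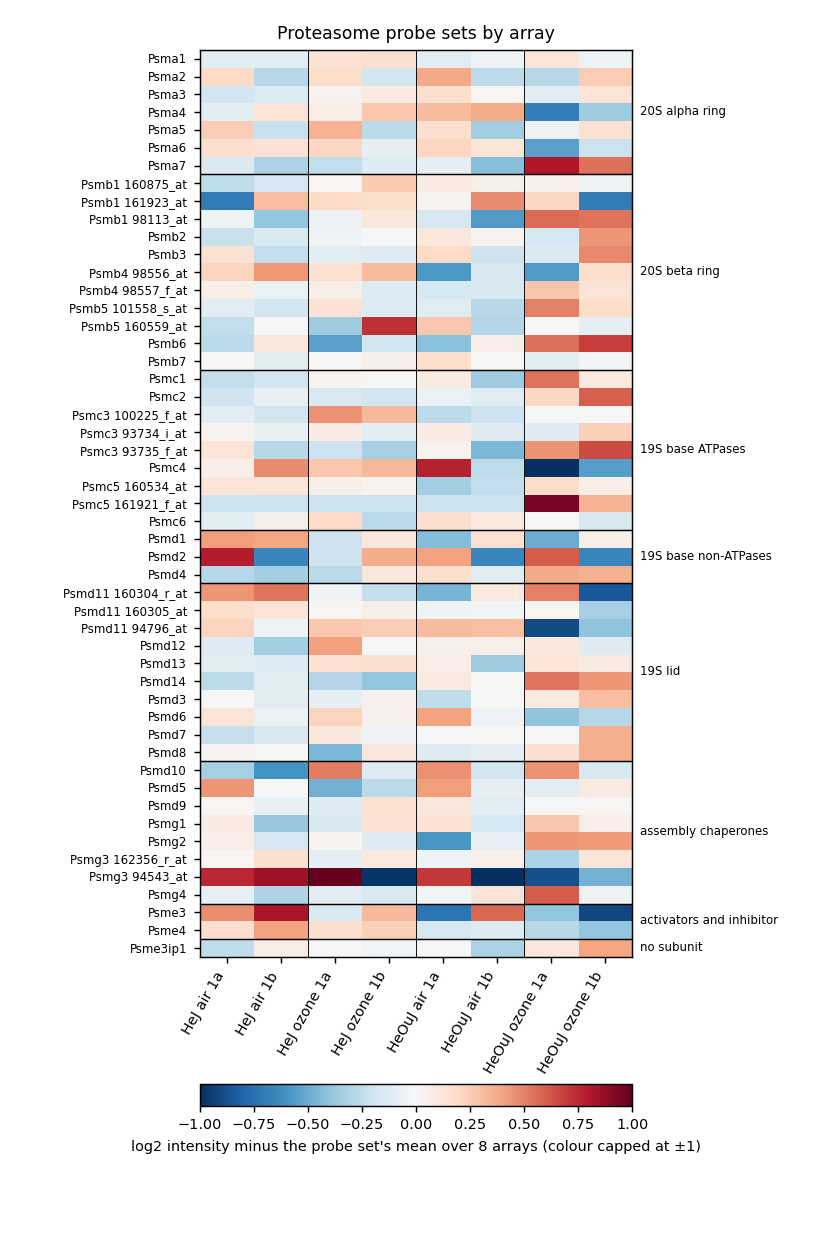
Colour shows the log2 intensity of each of the 51 tested proteasome probe sets (rows, by role) on each of the 8 arrays (columns) minus the mean of that probe set over the 8 arrays, from -1 (blue) to 1 (red). The HeOuJ ozone columns hold both red rows, such as Psma7, Psmb6 and Psmd14, and blue rows, such as Psma4 and Psmd11 (94796_at), and no column is of 1 colour.

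None of the 51 proteasome probe sets reached the threshold, a limma p adjusted over all probe sets of 0.05, in any of the 7 comparisons. Ozone against air in HeOuJ had 0 of 51 members past the threshold, against 0.456% of all probe sets tested (50). With no floor, 4 members passed (Psma7, Psma4, Psmd11 and Psmb1), against 110 of all 10953 probe sets. Among the brighter probe sets alone the same 4 passed, against 172 of all 6211. At an unadjusted p under 0.05, 16 of the 51 members (31.4%) differed, 11 higher and 5 lower in ozone, against 15.5% of all probe sets. The 11 include Psmc5 by 161921_f_at, which exceeded the floor only on the HeOuJ ozone arrays and was tested through them. The members share the same 4 arrays and have smaller errors than most probe sets, and the difference between these shares was not tested. The HeOuJ ozone arrays did not overlap the HeOuJ air arrays for 29 members (56.9%), against 41.8% of all probe sets. The median log2 difference was 0.10 for the members and 0.02 for all probe sets, with 31 members above 0 and 20 below. The middle 50% of the members lay between -0.11 and 0.37, so the subunits did not shift as a block, and the larger differences went both ways.

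**Figure D2:**
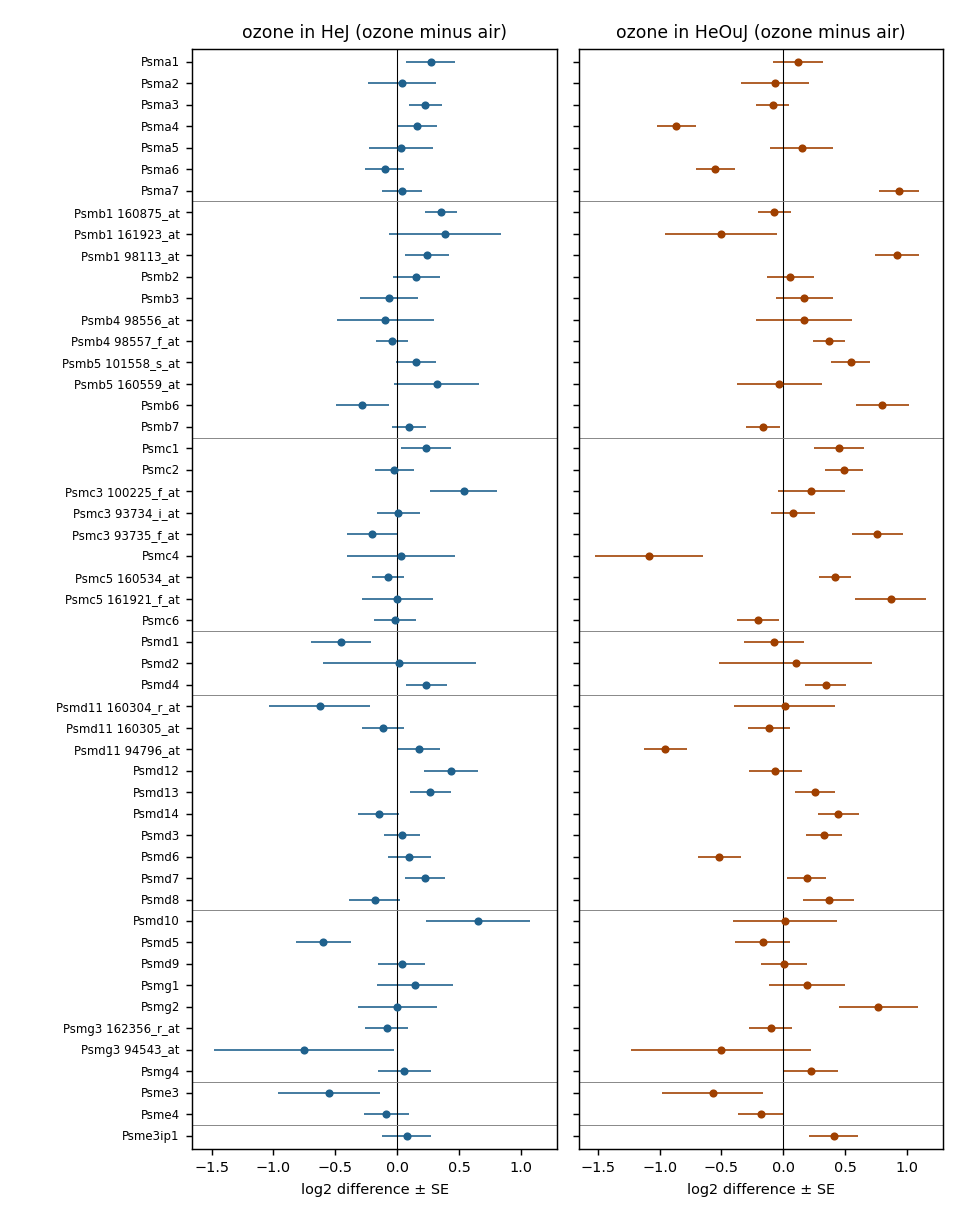
Points show the log2 difference of ozone minus air for each of the 51 tested probe sets, grouped by role from the alpha ring at the top to the activators and Psme3ip1 at the bottom, in HeJ (left) and HeOuJ (right), with bars of ± 1 SE from limma. In HeJ the points run from -0.76 to 0.65 and in HeOuJ from -1.09 to 0.93, with Psma7 at 0.93 and Psma4 at -0.87.

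The alpha ring held the member of smallest p. Psma7, an alpha subunit, had intensities of 2315 and 2063 in HeJ air, 2157 and 2333 in HeJ ozone, 2408 and 1902 in HeOuJ air, and 4456 and 3742 in HeOuJ ozone. Both HeOuJ ozone arrays lay above all the others, which overlapped each other. In HeOuJ the log2 difference was 0.93 (SE 0.16, 2 arrays a group, 1.91-fold, limma adjusted p 0.0556), with a 95% interval from 0.57 to 1.30, and in HeJ it was 0.04 (SE 0.16). Psma4, an alpha subunit of the same ring, went the other way. It had 2467 and 2905 in HeJ air, 2794 and 3212 in HeJ ozone, 3304 and 3448 in HeOuJ air, and 1652 and 2074 in HeOuJ ozone. The HeOuJ ozone arrays were the lowest of the 8 and the HeOuJ air arrays the highest, with a log2 difference of -0.87 (SE 0.16, adjusted p 0.0645) in HeOuJ. Psma6 was likewise lowest on the HeOuJ ozone arrays, at 2052 and 2584 against 2806 to 3485 on the other 6 (-0.55, SE 0.16, adjusted p 0.157). The 4 remaining alpha subunits, Psma1, Psma2, Psma3 and Psma5, each had an unadjusted p above 0.05 in both strains. Of the 7 alpha probe sets, 3 lay above 0 in HeOuJ and 6 in HeJ, with medians of -0.07 and 0.04.

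In the beta ring, the catalytic subunits had HeOuJ ozone differences from -0.16 to 0.80, none past the threshold. Psmb6, which cuts after acidic residues, had intensities of 1354 and 1751 in HeJ air, 1120 and 1432 in HeJ ozone, 1219 and 1709 in HeOuJ air, and 2395 and 2635 in HeOuJ ozone. The HeOuJ ozone arrays lay above the other 6, whose groups overlapped. The log2 difference was 0.80 (SE 0.21, 1.74-fold, adjusted p 0.141) in HeOuJ and -0.28 (SE 0.21) in HeJ. Psmb5, which cuts after hydrophobic residues, was read by 2 probe sets that differed. The first, 101558_s_at, had 2119 and 1992 in HeJ air, 2513 and 2077 in HeJ ozone, 2092 and 1885 in HeOuJ air, and 3239 and 2587 in HeOuJ ozone (HeOuJ 0.54, SE 0.16, adjusted p 0.169). The other, 160559_at, had 718 and 847, 668 and 1415, 1025 and 695, and 850 and 800 in the same order (HeOuJ -0.03, SE 0.34). Only the first of these separated HeOuJ ozone from HeOuJ air. Psmb7, which cuts after basic residues, had 1576 and 1455 in HeJ air, 1592 and 1644 in HeJ ozone, 1783 and 1591 in HeOuJ air, and 1456 and 1552 in HeOuJ ozone. Its exposures separated in both strains, in opposite directions and by little: 0.10 (SE 0.14) in HeJ, and -0.16 (SE 0.14) in HeOuJ with a 95% interval from -0.47 to 0.15.

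Of the beta subunits without a catalytic site, Psmb1 had the largest difference. Its probe set 98113_at had 2156 and 1704 in HeJ air, 2129 and 2404 in HeJ ozone, 1976 and 1504 in HeOuJ air, and 3288 and 3236 in HeOuJ ozone. The HeOuJ ozone arrays were again the highest of the 8, with a log2 difference of 0.92 (SE 0.18, 1.89-fold, adjusted p 0.0681). The brightest probe set of Psmb1, 160875_at, did not show this rise, with a HeOuJ difference of -0.07 (SE 0.13). A further probe set, 161923_at, lay near the floor, with 63.0 and 140 in HeJ air, 130 and 128 in HeJ ozone, 116 and 158 in HeOuJ air, and 131 and 41.4 in HeOuJ ozone. Of Psmb4, 98557_f_at had a HeOuJ difference of 0.37 (SE 0.13). Its probe set 98556_at had 210 and 244 in HeJ air, 200 and 224 in HeJ ozone, 122 and 162 in HeOuJ air, and 122 and 204 in HeOuJ ozone, so both HeOuJ air arrays lay below both HeJ air arrays. The 11 beta probe sets had a median of 0.17 in HeOuJ, 7 of them above 0, and of 0.15 in HeJ, also 7 above 0.

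The ATPases of the base were the role with the highest median in HeOuJ, 0.42 over 9 probe sets of 6 genes, 7 of them above 0, against 0 in HeJ. Psmc2 was highest on the HeOuJ ozone arrays, at 2400 and 3159 against 1811 to 1996 elsewhere (0.49, SE 0.15, adjusted p 0.192). Psmc5, by the probe set 160534_at, had 1794 and 1790 in HeJ air, 1714 and 1688 in HeJ ozone, 1294 and 1385 in HeOuJ air, and 1866 and 1720 in HeOuJ ozone. Here it was the HeOuJ air arrays that stood apart, below all the others. The HeOuJ log2 difference of Psmc5 was 0.42 (SE 0.13, adjusted p 0.183) and its strain difference in air -0.42 (SE 0.13, adjusted p 0.721), 2 values that use the same HeOuJ air arrays. A dim second probe set of Psmc5, 161921_f_at, was at the floor on all 6 arrays outside HeOuJ ozone, where it had 156 and 103, at least 1.82-fold higher. It entered the test only through those arrays, which fixed the sign of its difference beforehand, so its p-value is not given. It is still counted among the 7 ATPase probe sets above 0 and among the members higher on the HeOuJ ozone arrays. The HeOuJ median of 0.42 includes it and would be lower without it. In HeJ the median of 0 is the value of this probe set, which lay at the floor in both groups. Psmc4 was dim too, with 157 and 208 in HeJ air, 180 and 189 in HeJ ozone, 256 and 126 in HeOuJ air, and 16.3 and 102 in HeOuJ ozone. Its HeOuJ ozone arrays were the lowest and 1 of them lay below the floor, so that the log2 difference of -1.09 (SE 0.43, adjusted p 0.281) rests on a value raised to the floor. Psmc3 had 3 probe sets. Its 100225_f_at had 344 and 328 in HeJ air, 508 and 467 in HeJ ozone, 311 and 322 in HeOuJ air, and 368 and 373 in HeOuJ ozone. That probe set was higher in ozone on both arrays of each strain (HeJ 0.54, SE 0.27; HeOuJ 0.23, SE 0.27).

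Among the other subunits of the base, Psmd1, a scaffold, had a HeJ difference of -0.45 (SE 0.24) and a strain difference in air of -0.54 (SE 0.24), and Psmd2 was above the floor on 5 arrays only. Psmd4, a receptor for ubiquitin chains, had 1567 and 1515 in HeJ air, 1586 and 2073 in HeJ ozone, 2137 and 1772 in HeOuJ air, and 2486 and 2442 in HeOuJ ozone. Ozone lay above air in both strains and HeOuJ above HeJ in both exposures, without overlap. The ozone differences of Psmd4 were 0.23 (SE 0.16) in HeJ and 0.34 (SE 0.16) in HeOuJ, and averaged over exposures HeOuJ was higher by 0.39 (SE 0.12, adjusted p 0.217).

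In the lid, Psmd11, a scaffold subunit that joins lid and base, had the largest difference. Its probe set 94796_at had 3518 and 2917 in HeJ air, 3639 and 3583 in HeJ ozone, 3752 and 3715 in HeOuJ air, and 1629 and 2281 in HeOuJ ozone. The HeOuJ ozone arrays were the lowest of the 8, with a log2 difference of -0.95 (SE 0.17, adjusted p 0.0646) in HeOuJ and 0.17 (SE 0.17) in HeJ. The probe set 160304_r_at of the same gene had 832 and 889 in HeJ air, 598 and 520 in HeJ ozone, 445 and 655 in HeOuJ air, and 870 and 340 in HeOuJ ozone. In this one the HeJ air arrays were high and the HeOuJ ozone arrays overlapped all groups (HeJ -0.62, SE 0.41; HeOuJ 0.01, SE 0.41). Psmd14, the deubiquitinase that strips ubiquitin from the substrate, had 767 and 848 in HeJ air, 753 and 701 in HeJ ozone, 977 and 918 in HeOuJ air, and 1333 and 1247 in HeOuJ ozone. All HeOuJ arrays lay above all HeJ arrays, and the exposures separated in both strains. Psmd14 had the smallest p of the members for the strain difference averaged over exposures (0.53, SE 0.12, adjusted p 0.130). Psmd6 was lowest on the HeOuJ ozone arrays, at 1597 and 1730 against 2019 to 2786 elsewhere (-0.52, SE 0.17, adjusted p 0.216). Psmd12, a lid scaffold, had 681 and 586 in HeJ air, 986 and 739 in HeJ ozone, 772 and 768 in HeOuJ air, and 800 and 679 in HeOuJ ozone (HeJ 0.43, SE 0.22). Its exposures separated in HeJ and overlapped in HeOuJ. The 10 lid probe sets had medians of 0.10 in HeOuJ and 0.07 in HeJ, with 6 above 0 in each.

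**Figure D3:**
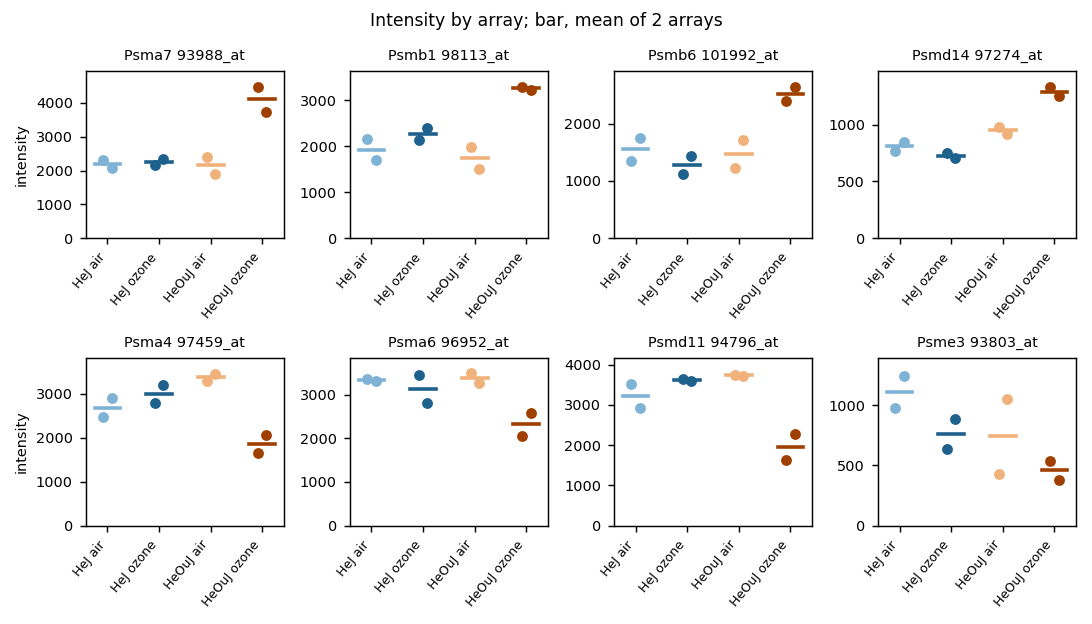
Points show the intensity (linear axis from 0) on each array of 8 proteasome probe sets, by group of 2 arrays, and bars show the group means. In the upper row both HeOuJ ozone arrays lie above all others, at 3742 and 4456 for Psma7, and in the lower row Psma4, Psma6 and Psmd11 are lowest there, while Psme3 overlaps between HeOuJ air and HeOuJ ozone.

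The chaperones that help to assemble the particle gave the largest differences in HeJ, on noisy probe sets. Psmd10, a chaperone of the base known as gankyrin, had 191 and 159 in HeJ air, 341 and 219 in HeJ ozone, 329 and 210 in HeOuJ air, and 328 and 215 in HeOuJ ozone. The HeJ air arrays were the lowest of the 8 (HeJ 0.65, SE 0.42; strain in air 0.59, SE 0.42). Psmg3, a chaperone of the alpha ring, had by its probe set 94543_at 480 and 514 in HeJ air, 599 and 144 in HeJ ozone, 465 and 137 in HeOuJ air, and 155 and 206 in HeOuJ ozone. Arrays of 1 group differed by more than the groups did (HeJ -0.76, SE 0.73), and the brighter probe set of Psmg3, 162356_r_at, had a HeJ difference of -0.09 (SE 0.17). Psmd5, a further chaperone of the base, had 1914 and 1407 in HeJ air, 1007 and 1169 in HeJ ozone, 1878 and 1316 in HeOuJ air, and 1306 and 1501 in HeOuJ ozone. HeJ ozone was the lowest group and did not overlap HeJ air (-0.60, SE 0.22, unadjusted p 0.0252, adjusted p 1.00). Psmg2 was highest on the HeOuJ ozone arrays, at 446 and 441 against 219 to 344 elsewhere (0.77, SE 0.32, adjusted p 0.295). The 8 chaperone probe sets had medians of 0.01 in HeOuJ and 0.02 in HeJ.

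The alternative caps of the core had lower means in HeOuJ than in HeJ in both exposures, without passing the test. Psme4, which activates the core without ATP, had 868 and 1021 in HeJ air, 863 and 910 in HeJ ozone, 687 and 709 in HeOuJ air, and 637 and 593 in HeOuJ ozone. All 4 HeOuJ arrays lay below all 4 HeJ arrays, and the strain difference averaged over exposures was -0.48 (SE 0.13, adjusted p 0.188). Psme3, the nuclear activator, had 975 and 1245 in HeJ air, 638 and 887 in HeJ ozone, 425 and 1054 in HeOuJ air, and 539 and 377 in HeOuJ ozone. Ozone lay below air without overlap in HeJ only (-0.55, SE 0.41), and averaged over exposures the strain difference was -0.73 (SE 0.29, adjusted p 0.341). Psme3ip1, which is no subunit, ran from 802 to 1309 with its highest values on the HeOuJ ozone arrays.

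In HeJ, ozone against air gave 0 of 51 members past the adjusted threshold, against 0% of all probe sets. At an unadjusted p under 0.05 there were 2 members, Psmd5 lower and Psmb1 (160875_at) higher, 3.92% against 4.35% of all probe sets. Ozone and air arrays were separate for 20 members (39.2%), against 34.4% of all probe sets. Psmb1 by 160875_at had 2549 and 2710 in HeJ air and 3084 and 3658 in HeJ ozone (0.35, SE 0.13, adjusted p 1.00), and 3225 and 3175 in HeOuJ air and 3161 and 2933 in HeOuJ ozone. The median over the members was 0.03, against 0.01 for all probe sets, with 31 members above 0, 19 below and 1 at the floor in both groups. The 95% interval of the ozone effect lay within a 2-fold change either way for 40 of the 51 members in HeJ (78.4%, against 57.9% of all probe sets) and for 37 in HeOuJ (72.5%, against 48.5%). A 2-fold change in either direction was thus outside the interval of most subunits in both strains.

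The ozone effects of the strains, which share no arrays, were set side by side. They had the same sign for 29 of the 51 members (56.9%), against 47.4% of all probe sets, and across the members Pearson's r was 0.07 and Spearman's rho 0.03, as a description across genes that are not independent. For 6 members the exposures separated in both strains in the same direction, always with ozone higher: Psma1, Psmc1, Psmc3 (100225_f_at), Psmd4, Psmd7 and Psmd13. Psmd13, a lid subunit, was the most even of these, with 0.27 (SE 0.16) in HeJ and 0.26 (SE 0.16) in HeOuJ. With the 5′ to 3′ ratio of control probe sets in the model, the HeOuJ effect went below 0 for Psmd13 (-0.093, SE 0.33) and for Psmc1 (from 0.45 to -0.029, SE 0.41). For 5 members they separated in opposite directions: Psmb1 (160875_at), Psmb7, Psmc5 (160534_at), Psmd11 (94796_at) and Psmd14. Over all probe sets the exposures separated for 34.4% in HeJ and 41.8% in HeOuJ. The share of all probe sets that separated in both strains was not counted, so whether the 6 and the 5 are unusual was not tested. The test of the difference between the effects, the interaction, passed for 0 of 51 members in limma, against 0% of all probe sets, and 11 (21.6%) had an unadjusted p under 0.05, against 11.4%. The smallest p-values were those of Psma4 (-1.03, SE 0.22, adjusted p 0.184), Psmd11 (-1.13, SE 0.25, adjusted p 0.184) and Psma7 (0.89, SE 0.23, adjusted p 0.225). Averaged over strains, ozone gave 0 members past the threshold against 0.0183% of all probe sets. Unadjusted p-values under 0.05 were found for 9 of 51 (17.6%), against 9.25% of all probe sets. First came Psmb1 (98113_at) at 0.58 (SE 0.12, limma adjusted p 0.256) and Psma7 at 0.48 (SE 0.11, adjusted p 0.273). The median over the members was 0.10 in that comparison, with 34 above 0, against 0.02 for all probe sets.

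Between the strains, the members' differences in air were smaller than those in ozone by count. HeOuJ against HeJ in air gave 0 of 51 members past the adjusted threshold, against 0.0456% of all probe sets. At an unadjusted p under 0.05 there were 2 members (3.92%), Psmc5 (160534_at) and Psme4, both lower in HeOuJ, against 5.71%. The groups did not overlap for 24 members (47.1%), against 32.7% of all probe sets. The median was -0.002 (all probe sets 0.01). In ozone the strains also gave 0 of 51 members past the threshold, against 0.977% of all probe sets (107), but 14 members at an unadjusted p under 0.05, 8 higher and 6 lower in HeOuJ (27.5%, against 18% of all probe sets). The groups did not overlap for 29 members there (56.9%), against 45.9%. Psmc5 by 161921_f_at, tested only through the HeOuJ ozone arrays, is counted among the 8 and the 29. The smallest adjusted p-values were 0.0515 for Psma7 (0.86, SE 0.16), 0.0554 for Psmd11 by 94796_at (-0.91, SE 0.17) and 0.0558 for Psmd14 (0.83, SE 0.16). After them came Psmb6 at 0.99 (SE 0.21, 1.98-fold, adjusted p 0.0700), Psma4 at -0.69 (SE 0.16, adjusted p 0.0756) and Psmc3 by 93735_f_at at 0.83 (SE 0.21, adjusted p 0.0967). These are largely the members that also differed between ozone and air in HeOuJ, and both comparisons use the same HeOuJ ozone arrays. Averaged over exposures, 0 members passed against 0.155% of all probe sets. Unadjusted p-values under 0.05 were found for 9 members (17.6%), 6 higher and 3 lower in HeOuJ, against 13%.

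The RNA measure that set the HeOuJ ozone arrays apart was entered into the model as a covariate, the mean log2 5′ to 3′ ratio of the actin and Gapdh controls. With it, the HeOuJ ozone effect of Psma7 went from 0.93 to 0.42 (SE 0.29), that of Psmb1 (98113_at) from 0.92 to 0.32 (SE 0.31) and that of Psma4 from -0.87 to -0.38 (SE 0.29). Psmc3 by 93735_f_at went from 0.76 to 0.062 (SE 0.37), Psmb5 by 101558_s_at from 0.54 to 0.13 (SE 0.31) and Psmb4 by 98557_f_at from 0.37 to 0.13 (SE 0.27). These 6 thus came closer to 0. Psmb6 went the other way, from 0.80 to 1.66 (SE 0.32), and Psmd6 from -0.52 to -1.02 (SE 0.33). Psmd11 (94796_at) stayed near its value, from -0.954 to -1.004 (SE 0.39), as did Psmd14, from 0.45 to 0.46 (SE 0.36). The covariate nearly follows 1 group, so the errors grew and it and the group can hardly be told apart; no probe set of the array passed for ozone in HeOuJ in that fit.

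Leaving out 1 array at a time kept the sign of every member difference with an unadjusted p under 0.05 and moved some sizes. Where 2 groups were compared, the arrays did not overlap for any of these members. Their sign could therefore not change when 1 array was left out, and only the sizes are informative there. In HeOuJ the ozone effect of Psma7 ran from 0.76 to 1.10, that of Psmb1 (98113_at) from 0.72 to 1.12, that of Psma4 from -1.03 to -0.70 and that of Psmd11 (94796_at) from -1.20 to -0.71. Others rested more on 1 array. Without HeOuJ air 1a, the HeOuJ effect of Psmd6 was -0.29 in place of -0.52 and that of Psmc4 -0.57 in place of -1.09, and the strain difference of Psme3 averaged over exposures was -0.40 in place of -0.73. Psmc2 came to 0.29 in place of 0.49 without HeOuJ ozone 1b, and the dim probe set of Psmc5, 161921_f_at, to 0.57 in place of 0.87 without HeOuJ ozone 1a. In HeJ, Psmd5 came to -0.38 in place of -0.60 without HeJ air 1a, and Psmb1 (160875_at) to 0.23 in place of 0.35 without HeJ ozone 1b.

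Probe sets of the same gene did not always tell the same story. Of the 7 genes with several probe sets, Psmb1 had HeOuJ ozone differences of 0.92 (98113_at), -0.07 (160875_at) and -0.50 (161923_at). Those of Psmd11 were -0.95 (94796_at), -0.12 (160305_at) and 0.01 (160304_r_at). Psmc3 had 0.76 (93735_f_at, SE 0.21, adjusted p 0.146), 0.23 (100225_f_at) and 0.08 (93734_i_at). By 93735_f_at the intensities of Psmc3 were 1638 and 1228 in HeJ air, 1284 and 1186 in HeJ ozone, 1532 and 1089 in HeOuJ air, and 2040 and 2346 in HeOuJ ozone, so only this probe set placed both HeOuJ ozone arrays above the other 6. Which probe set of these genes follows the whole transcript was not tested, and 12 of the 51 tested members have a name that marks probes shared with related sequences or chosen under relaxed rules (suffixes f, i, r and s).

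**Figure D4:**
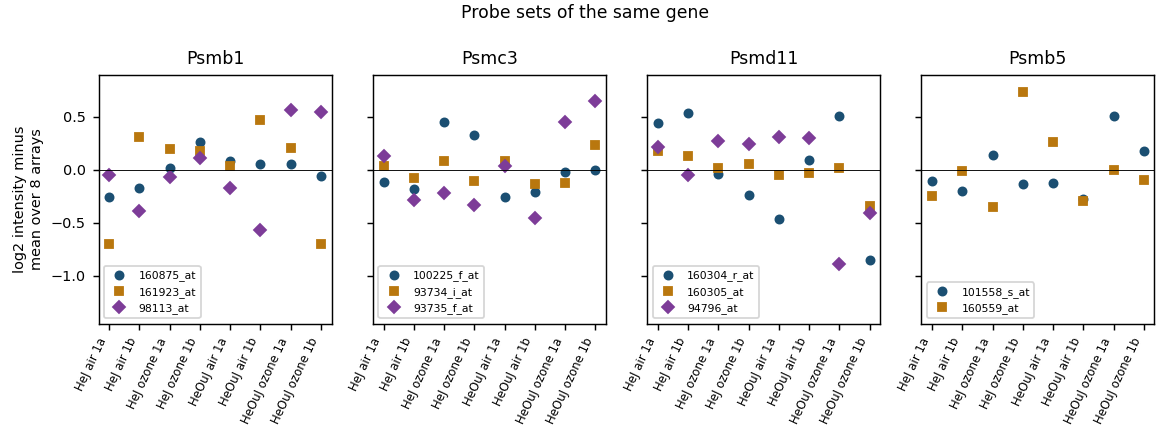
Points show the log2 intensity minus the mean over 8 arrays for each probe set of Psmb1, Psmc3, Psmd11 and Psmb5 on each array. On the HeOuJ ozone arrays Psmb1 by 98113_at and Psmc3 by 93735_f_at lie above 0 and Psmd11 by 94796_at lies below 0, while the other probe sets of the same gene lie closer to 0 or scatter.

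The interferon-induced genes, whose products replace the catalytic subunits and cap the core in the immunoproteasome, were read by 5 tested probe sets of 4 genes, with none for Psme2. Psmb8, the replacement for Psmb5, had 2619 and 2279 in HeJ air, 2248 and 2491 in HeJ ozone, 2800 and 2298 in HeOuJ air, and 4275 and 3458 in HeOuJ ozone. Psme1, a subunit of the interferon-induced cap, had by 101510_at 2549 and 2699 in HeJ air, 2356 and 2552 in HeJ ozone, 2275 and 2420 in HeOuJ air, and 3312 and 3417 in HeOuJ ozone. For both of these probe sets the HeOuJ ozone arrays were the highest of the 8. The HeOuJ differences were 0.60 (SE 0.16, limma adjusted p 0.145) for Psmb8 and 0.52 (SE 0.12, adjusted p 0.0999) for Psme1. A dim further probe set of Psme1, 161293_r_at, did not rise there and was mostly below the floor. It had 26.8 and 120 in HeJ air, 69.1 and 55.2 in HeJ ozone, 33.4 and 80.0 in HeOuJ air, and 21.6 and 19.3 in HeOuJ ozone. None of the 5 passed in any comparison. Their median was 0.38 in HeOuJ, with 4 of 5 above 0, and -0.10 in HeJ, with 0 of 5 above 0, beside 0.10 and 0.03 for the members. A fixed list of other interferon-induced genes (Tap1, Tap2, Tapbp, B2m and Irf1) had 8 tested probe sets. Of these, 2 lay above 0 for ozone in HeOuJ (median -0.07) and 1 in HeJ (median -0.09), with 0 past the adjusted threshold in either strain.

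Other genes of the pathway were taken from fixed lists. Of the further proteasome parts and factors, 12 probe sets with the maturation factor Pomp, the small subunit Sem1 and the transcription factor Nfe2l1 among them, 0 passed in limma in either strain, and at an unadjusted p under 0.05 there was 1 higher (Sem1) in HeOuJ and 0 in HeJ. Their medians were 0.16 and 0.08. Sem1 had a HeOuJ difference of 0.33 (SE 0.14) and Uchl5, a deubiquitinase of the regulatory particle, one of 0.78 (SE 0.34). The probe sets of Nfe2l1 had 0.38 (SE 0.30) and 0.12 (SE 0.12) in HeOuJ, and that of its relative Nfe2l2 0.21 (SE 0.16). Of the shuttles, the unfoldase Vcp and free deubiquitinases, 15 probe sets with medians of 0.15 in HeOuJ and -0.03 in HeJ, 0 passed for ozone in either strain, with 1 and 0 at an unadjusted p under 0.05. The enzymes that activate and conjugate ubiquitin had a median below 0 in HeOuJ: of 32 probe sets 10 lay above 0 in HeOuJ, with a median of -0.22 and 0 past the adjusted threshold for ozone, and 9 lower and 1 higher at an unadjusted p under 0.05, against 15.5% of all probe sets. Between the strains in ozone 2 of the 32 were called, both lower in HeOuJ, against 0.977% of all probe sets. Ube2n, which builds ubiquitin chains used in signalling, had 2286 and 2900 in HeJ air, 2927 and 2787 in HeJ ozone, 2346 and 2357 in HeOuJ air, and 1498 and 1540 in HeOuJ ozone (strain in ozone -0.91, SE 0.14, adjusted p 0.0454). Ube2g1, a conjugating enzyme, had 1956 and 2319, 2822 and 2523, 2230 and 2042, and 1322 and 1609 in the same order (-0.87, SE 0.16, adjusted p 0.0494). For both, the HeOuJ ozone arrays were the lowest of the 8. Neither call was stable: Ube2g1 passed in none of the 8 fits that left out 1 array (adjusted p 0.061 to 0.357), Ube2n only in those without HeJ air 1a or 1b (0.0474 to 0.357 over the 8), and with the 5′ to 3′ ratio in the model their differences were -0.36 for Ube2n and -0.47 for Ube2g1 (adjusted p 0.983).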

How the data were processed

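Total RNA of mouse lung was measured on Affymetrix MG_U74Av2 arrays, 2 for each of 4 groups. The deposited values are 1 linear intensity per probe set and array, with a 2% trimmed mean between 800.39 and 800.41 on every array, so they had been scaled before deposit; the software and its settings are not given in the sources used here. Of 12488 probe sets 66 controls were left out. Values under the floor of 69.6 (20th percentile) were raised to it, log2 was taken, and probe sets above it on 2 or more arrays were tested. All 8 arrays entered 1 limma 3.58.1 model of 4 group means (R 4.3.3; eBayes with an intensity trend, 4 residual and 4.54 prior degrees of freedom). Adjustment was by Benjamini-Hochberg over the 10953 probe sets, and the code was tested on simulated data. Differences are ozone minus air or HeOuJ minus HeJ. Members and lists were chosen with earlier results of these data known. Genes were named by rule: the 3 largest rises and falls in 4 comparisons, the catalytic subunits and any member that passed. Of some of the other lists, those that passed or the 2 of smallest p were named, and the remaining lists are given by counts and medians. Others named, such as Psma6, Psmc2 and Psmd14, were picked for small p after their values were seen. Gene names are those of GEO's array annotation. All 42 symbols matched RefSeq genes by Entrez identifier. Alternatives covered floor, filter, scaling, variance model, array weights, the 5′ to 3′ ratio, replicate letters, probe sets per gene, the member list and each array left out. Figures used matplotlib 3.10.9 under Python 3.11.15.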

Additional observations from a re-analysis of the deposited data

How the results depend on the processing

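The absence of calls among the members depends on the processing for 2 comparisons. For ozone in HeOuJ, where 0 of 51 members passed, 1 passed with the floor at the 10th percentile or with 1 probe set per gene (Psma7). Psma7, Psma4, Psmd11 and Psmb1 passed with log2(value + 32) in place of a floor or with only probe sets whose mean was above the median of all. Over all probe sets or genes these 4 settings gave 70 of 12002, 46 of 7629, 110 of 10953 and 172 of 6211, in that order. For the strain difference in ozone, 2 passed with the lower floor, 4 with no floor, 1 without the filter on dim probe sets, 5 with only the brighter probe sets and 3 with 1 probe set per gene. Over all probe sets or genes the same settings gave 136 of 12002, 224 of 10953, 57 of 12422, 282 of 6211 and 130 of 7629, in that order. In the other 5 comparisons 0 members passed under every alternative run, and 0 passed in any comparison in the fits that left out 1 array.

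Replicate letters were entered as a replicate block. Among the members this gave 2 calls for ozone in HeOuJ (Psma7 and Psma4) and 3 for the strain difference in ozone (Psma7, Psma4 and Psmb6), and 0 elsewhere. Over all 10953 probe sets it gave 57 calls for ozone in HeOuJ and 185 for the strain difference in ozone. The deviations of arrays with the same letter correlated by -0.01 to 0.14 between groups. Of the 6 pairs of groups 3 exceeded 0.1 (0.117, 0.138 and 0.109, among HeJ air, HeJ ozone and HeOuJ air) and the 3 with HeOuJ ozone did not, so the letters were not taken as pairing the arrays.

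The median over the members moved with the 5′ to 3′ ratio as a covariate, to 1.1e-04 for ozone in HeOuJ, -0.12 for the interaction, -0.084 for the strain in air, -0.19 for the strain in ozone and -0.18 for the strain averaged. In that fit the strain difference in ozone reversed for Psmc3 (93735_f_at), to -0.27, Psma4, to 0.064, and Psmb1 (98113_at), to -0.41, and that averaged over exposures for Psmc3 (93735_f_at), to -0.46, Psma7, to -0.18, and Psme3, to 0.60, with adjusted p-values of 0.979 to 0.995. With 1 array left out, the median ran from 0.028 (without HeOuJ air 1b) to 0.20 (without HeOuJ air 1a) for ozone in HeOuJ, -0.037 to 0.17 for the interaction, -0.082 to 0.14 for the strain in air and -0.017 to 0.14 for the strain in ozone. The causes were not tested.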
